A study of Homo sapiens with 6 samples.

Results

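The 4 mature arms of miR-224 and miR-452 (hsa-miR-224-5p, hsa-miR-224-3p, hsa-miR-452-5p and hsa-miR-452-3p) were taken by name from 2 deposited tables of read counts, each listing 2588 mature miRNAs. No measured value set the choice of these names, though earlier results of these data were known when it was made. A549, a cell line from a human lung adenocarcinoma, was the source of every library. The cells carried a lentiviral vector whose short hairpin RNA against METTL1, the methyltransferase that places N7-methylguanosine (m7G) in RNA, is switched on by doxycycline. Both groups were knockdown cells given 200 ng/ml doxycycline, taken at day 5. The first group held 3 small RNA libraries of total RNA, named as input in the table, and the second held 3 m7G-RIP libraries, made from decapped, heat-denatured RNA pulled down with an antibody against m7G. The comparison asks which arms the antibody recovers more or less than the other miRNAs of the same cells. No library of cells with METTL1 intact and no library with a control antibody was analysed here, so the ratios do not measure what METTL1 does. A growth text attached to the m7G-RIP samples describes the medium of Caco-2 cells, whereas their titles and cell line labels say A549. Which of several short hairpins was induced, and whether the replicates were separate cultures, is not given in the labels, so p-values measure the spread between these libraries, which may be technical.

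A miRNA is cut from a hairpin in a longer transcript, first by DROSHA in the nucleus and then by DICER1 in the cytoplasm. One of the arms usually stays in an Argonaute protein as the guide while the other, the passenger, is lost, and the guide finds mRNAs mainly through its seed, the bases near its 5′ end. MIR224 and MIR452 are an intronic pair on the X chromosome, inside GABRE, which encodes the epsilon subunit of the GABA-A receptor. miR-224 is known for its raised level in hepatocellular carcinoma and other tumours, and SMAD4 and API5 are among its described targets.

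Both hairpins lie in intron 6 of the canonical GABRE transcript, which has 9 exons, on the minus strand like GABRE itself (GENCODE release 44, GRCh38). The GABRE gene spans chrX:151953124-151974680 and the intron chrX:151955861-151959838, a stretch of 3978 bases. MIR452 (chrX:151959628-151959712) comes first in the direction of transcription and MIR224 (chrX:151958578-151958658) follows after a gap of 969 bases. The mRNA of GABRE was not measured in these libraries.

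**Figure D1:**
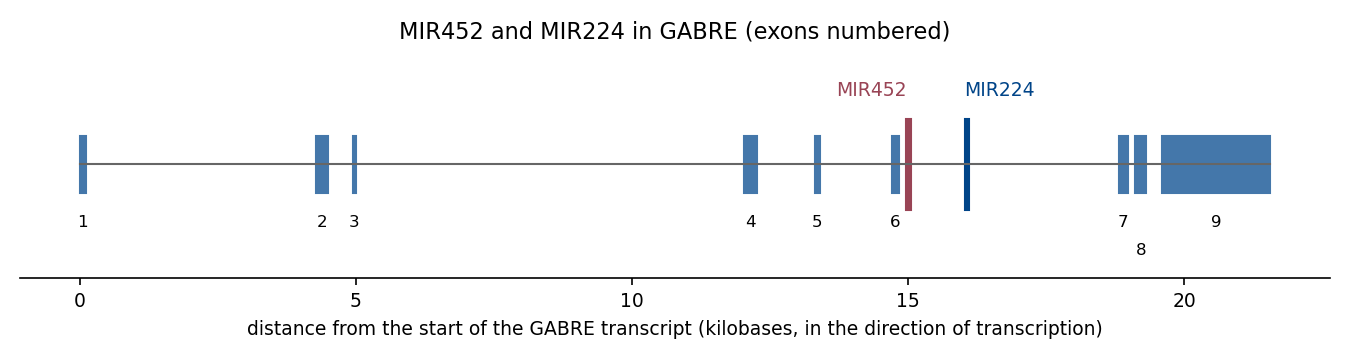
GABRE drawn to scale, with the distance from the start of its canonical transcript on the horizontal axis in kilobases. Boxes are the 9 numbered exons and the taller bars are the 2 hairpins, which both lie between exons 6 and 7.

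The hairpins are shown because their arms are the items compared. The sequences are those of RefSeq (GRCh38.p14), written 5′ to 3′, with the mature arms in capitals, the 5p arm first.
MIR224: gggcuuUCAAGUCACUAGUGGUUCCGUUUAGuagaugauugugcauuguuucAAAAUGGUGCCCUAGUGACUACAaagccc
MIR452: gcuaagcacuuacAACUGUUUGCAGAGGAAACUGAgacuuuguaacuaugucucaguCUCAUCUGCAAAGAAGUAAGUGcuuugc

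Each mature arm was found in 1 RefSeq hairpin only. The mature arms are given next with the seed, bases 2 to 8, in capitals, since the seed sets which mRNAs a guide can pair with.
miR-224-5p: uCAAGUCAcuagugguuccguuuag
miR-224-3p: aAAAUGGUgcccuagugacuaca
miR-452-5p: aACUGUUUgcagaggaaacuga
miR-452-3p: cUCAUCUGcaaagaaguaagug

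The 4 seeds are all different, so the pair does not form a seed family although it shares an intron. The arms were counted on the authors' miRBase annotation, which was not used here, so its starts were not compared with RefSeq. An entry of miR-224-5p that began at another base than the one printed would have another seed. Only the miR-452-5p seed was found in other human entries with a single RefSeq sequence, miR-4676-3p and miR-892c-3p. Neither passed the filter on low counts. miR-4676-3p had 69 counts over the total RNA libraries and 9 over the m7G-RIP libraries, and miR-892c-3p had 11 and 17. Guanosine is the base that carries m7G. There are 6 in the 25 bases of miR-224-5p, 5 in the 23 of miR-224-3p, 6 in the 22 of miR-452-5p and 5 in the 22 of miR-452-3p. A loose G-quadruplex motif, with 4 runs of GG or longer separated by 1 to 7 bases of any kind, was searched for on the transcribed strand and was not found in either hairpin. It occurs in 29.3% of 1562 RefSeq miRNA hairpins.

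Total RNA libraries held 9155690 to 10753443 counts and m7G-RIP libraries 2649238 to 3106556, so an arm needed to be more abundant in m7G-RIP to be counted equally well. Levels are given as CPM, the read count relative to the TMM-scaled library size. A read spans a whole arm, so CPM needs no correction for length. How well each arm was captured into a library was not measured, so comparisons between arms are of reads. The spread between replicates exceeded what counting alone gives (chi-square per degree of freedom from 22.2 to 112). Of 4 epithelial marker miRNAs, all 4 had counts in total RNA (summed 609 to 633 CPM) and 3 in m7G-RIP (374 to 498 CPM). The marker miR-141-3p was at 0 in m7G-RIP and at most 0.677 CPM in total RNA. Of 12 markers of other cell types, 5 had counts in total RNA (summed 504 to 619 CPM) and 5 in m7G-RIP (113 to 249 CPM). Nearly all of this was miR-9-5p in total RNA, a neuronal marker. In m7G-RIP replicate 2 the muscle markers miR-1-3p and miR-133a-3p were at 81.6 and 35.8 CPM. Their lowest m7G-RIP values were 0.535 and 0 CPM. The blood markers miR-142-3p, miR-142-5p and miR-223-3p and the liver marker miR-122-5p were at 0 in all 6 libraries. Their part in the results on miR-224 and miR-452 was not tested.

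All 4 arms were lower in every m7G-RIP library than in every total RNA library. The fall passed the test for the guides miR-224-5p and miR-452-5p and did not for miR-224-3p. The scarce miR-452-3p was also called, but it entered the test only through its counts in total RNA, so it had to be lower in m7G-RIP. Depletion was common in these data. With edgeR's quasi-likelihood test, 181 (29.2%) of the 620 miRNAs that passed the filter were depleted in m7G-RIP and 146 (23.5%) were enriched. For 226 (36.5%) every m7G-RIP library lay below every total RNA library, and for 183 (29.5%) every one lay above. All 4 arms passed the filter, 1 of them (miR-452-3p) through total RNA alone, and 0 were enriched. Enriched miRNAs made up 44.6% of the calls with TMM scaling and 60.5% with library size alone. The ratio compares what the antibody recovered with total RNA of cells labelled alike, and says nothing of the amount of an arm per cell. For the total RNA levels themselves, fewer cells holding an arm and less of it per cell cannot be told apart.

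miR-224-5p, the guide of MIR224, was the most abundant of the 4 arms. In total RNA it was at 5134, 5161 and 5554 CPM in replicates 1, 2 and 3, from 45499, 43419 and 42239 counts. In m7G-RIP it was at 1567, 1836 and 1544 CPM, from 5321, 5847 and 5769 counts. The libraries of each group lay close together and the groups were far apart. Means were 5283 ± 235 CPM in total RNA and 1649 ± 162 in m7G-RIP (SD, n = 3), 3.20-fold lower. The log2 ratio was -1.68 with an SE of 0.11 (edgeR adjusted p 2.3e-06). By raw count it ranked 22 or 23 among all miRNAs of the total RNA libraries and between 37 and 39 in the m7G-RIP libraries.

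miR-452-5p, the more abundant arm of MIR452, had the lower ratio of the 2 guides. Its levels were 674, 671 and 598 CPM in total RNA, from 5977, 5641 and 4545 counts, and 106, 165 and 110 CPM in m7G-RIP, from 360, 527 and 412 counts. The highest m7G-RIP library, replicate 2, stayed far under the lowest total RNA library. Means were 648 ± 43.3 and 127 ± 33.1 CPM (SD, n = 3), 5.09-fold lower. The log2 ratio was -2.35 with an SE of 0.19 (edgeR adjusted p 9.94e-06). It ranked 73 to 75 in total RNA and 123 to 147 in m7G-RIP.

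miR-224-3p, the passenger of MIR224, was present at a few CPM. It had 117, 162 and 92 counts in total RNA (13.2, 19.3 and 12.1 CPM) and 20, 6 and 28 counts in m7G-RIP (5.89, 1.88 and 7.50 CPM). The spread within m7G-RIP was wide, with replicate 2 the lowest. Its log2 ratio was -1.53 (SE 0.59, edgeR adjusted p 0.0539), just outside the threshold of 0.05. The call was made with DESeq2 (adjusted p 0.0366), with no filter on low counts (adjusted p 0.0271), without m7G-RIP replicate 2 (log2 ratio -1.31, adjusted p 0.0445) and without m7G-RIP replicate 3 (log2 ratio -2.11, adjusted p 0.0259). Over all alternatives the adjusted p ran from 0.0259 to 0.215. With library size alone the log2 ratio was -0.97.

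miR-452-3p, the passenger of MIR452, was the scarcest. It had 34, 84 and 31 counts in total RNA (3.84, 9.98 and 4.08 CPM), with replicate 2 above the other two. In m7G-RIP it had 1, 1 and 0 counts, and the library with 0 counts allows up to 0.803 CPM (3 counts). The counts summed over libraries, 149 against 2, gave a level 30.9-fold lower in m7G-RIP, with an exact binomial 95% interval from 8.40 to 257 that covers counting error only. The edgeR adjusted p was 0.00585, and the fitted log2 ratio of -4.78 (SE 1.11) depends on the prior count because m7G-RIP was at the floor. Since the arm passed the filter only through total RNA, and failed it without total RNA replicate 2 or 3, this p is given as a description and supports no direction.

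**Figure D2:**
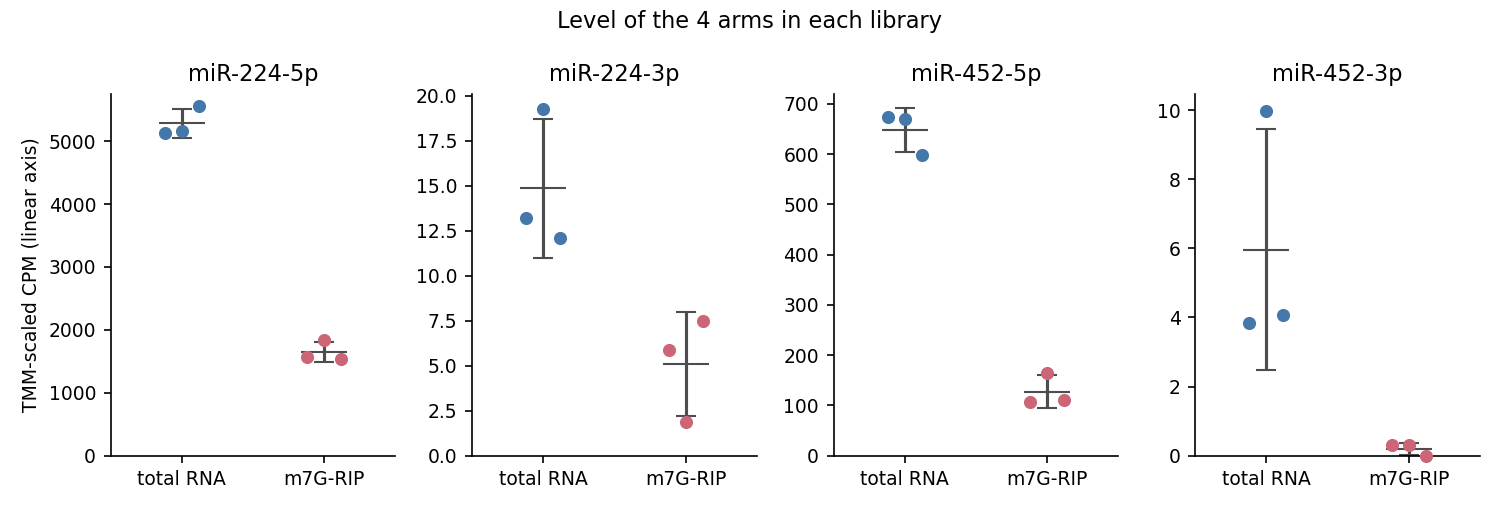
Level of each arm in TMM-scaled CPM on a linear axis from 0, one panel per arm. Points are libraries and the bars give the mean ± SD (n = 3). In each panel the 3 m7G-RIP libraries lie below the 3 total RNA libraries.

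The position of the arms among all tested miRNAs differed. miR-224-5p had a log2 ratio above that of 25.3% of tested miRNAs, miR-224-3p above 27.1% and miR-452-5p above 15.5%. miR-452-3p has no fixed place, since its fitted value depends on the prior count. The median over all 620 was -0.07, and relative to it miR-224-5p was at -1.61 and miR-452-5p at -2.27. Library size alone in place of TMM raised that median by 0.55, to 0.48, and relative to the raised median the arms were at -1.61 and -2.28.

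**Figure D3:**
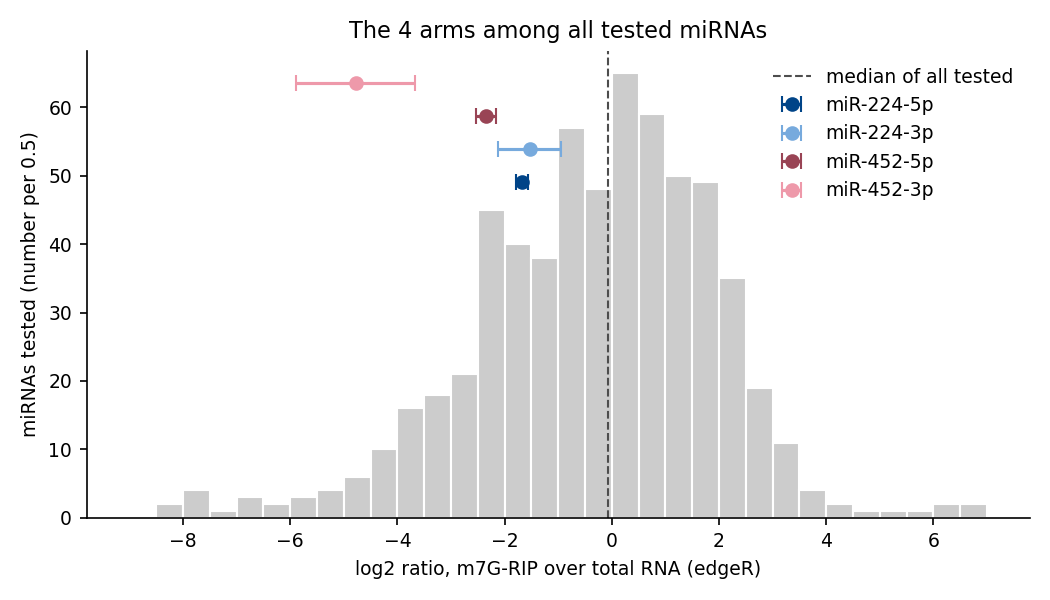
Distribution of the log2 ratio of m7G-RIP over total RNA for the 620 tested miRNAs (grey, number per bin of 0.5). Points with bars are the 4 arms with their SE, placed at arbitrary heights, and the dashed line is the median of -0.07. All 4 arms lie left of the median, and the value of miR-452-3p, at the m7G-RIP floor, depends on the prior count.

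Ratios between arms within a library need no scaling, so they were used to ask whether the hairpins and arms differed from each other. In total RNA there were 7.61, 7.70 and 9.29 reads of miR-224-5p for each read of miR-452-5p in replicates 1, 2 and 3. In m7G-RIP there were 14.8, 11.1 and 14.0. All 3 m7G-RIP ratios exceeded all 3 total RNA ratios, so in these libraries miR-452-5p stood lower against its neighbour from the same intron after m7G-RIP. The difference on the log2 scale was 0.69 (SE 0.16; exact permutation p = 0.1, two-sided, 0.133 adjusted over the 4 pairs compared). No smaller p than 0.1 is possible with 3 libraries in each group, so the design cannot reach 0.05. Counted over both arms, MIR224 gave 89.0% ± 1.08 of the reads of the 4 arms in total RNA and 92.9% ± 1.05 in m7G-RIP (SD, n = 3; exact permutation p = 0.1, 0.15 adjusted over 3 shares).

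No difference between the arms of MIR224 could be seen. The 5p arm made up 99.7%, 99.6% and 99.8% of MIR224 reads in total RNA and 99.6%, 99.9% and 99.5% in m7G-RIP, so the groups overlapped. The log2 ratio of 5p over 3p was 8.50 ± 0.40 in total RNA and 8.50 ± 1.15 in m7G-RIP (SD, n = 3; exact permutation p = 1). The SE of the difference was 0.70, so the counts of miR-224-3p set no close bound on it. Without m7G-RIP replicate 2, which had 6 counts of miR-224-3p, the difference was -0.66. The summed counts gave a level 3.21-fold lower in m7G-RIP for miR-224-5p (exact binomial 95% interval 3.16 to 3.26) and 2.85-fold lower for miR-224-3p (2.14 to 3.86).

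For the arms of MIR452 the libraries of the 2 groups separated, without reaching the threshold. The 5p arm made up 99.4%, 98.5% and 99.3% of MIR452 reads in total RNA and 99.7%, 99.8% and 100% in m7G-RIP. The Wilson 95% interval of the last, from 412 reads, was 99.1% to 100%, and it overlaps that of total RNA replicate 1, which was 99.2% to 99.6%. The shares of the groups did not overlap (exact permutation p = 0.1, 0.15 adjusted over 3 shares). The log2 ratio of 5p over 3p was higher by 1.79 in m7G-RIP (SE 0.67, exact permutation p = 0.1, 0.133 adjusted over 4 pairs). This rests on 2 reads of miR-452-3p, and the difference was 1.20 with a pseudocount of 1 and 2.85 with a pseudocount of 0.1 in place of 0.5. Between the passengers, miR-224-3p over miR-452-3p was higher by 2.49 in m7G-RIP (SE 1.10, exact permutation p = 0.1, 0.133 adjusted). Without m7G-RIP replicate 3 that difference was 1.52. The share and the differences that involve miR-452-3p rest on an arm at the m7G-RIP floor. It passed the filter only through total RNA, so these tests support no direction.

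**Figure D4:**
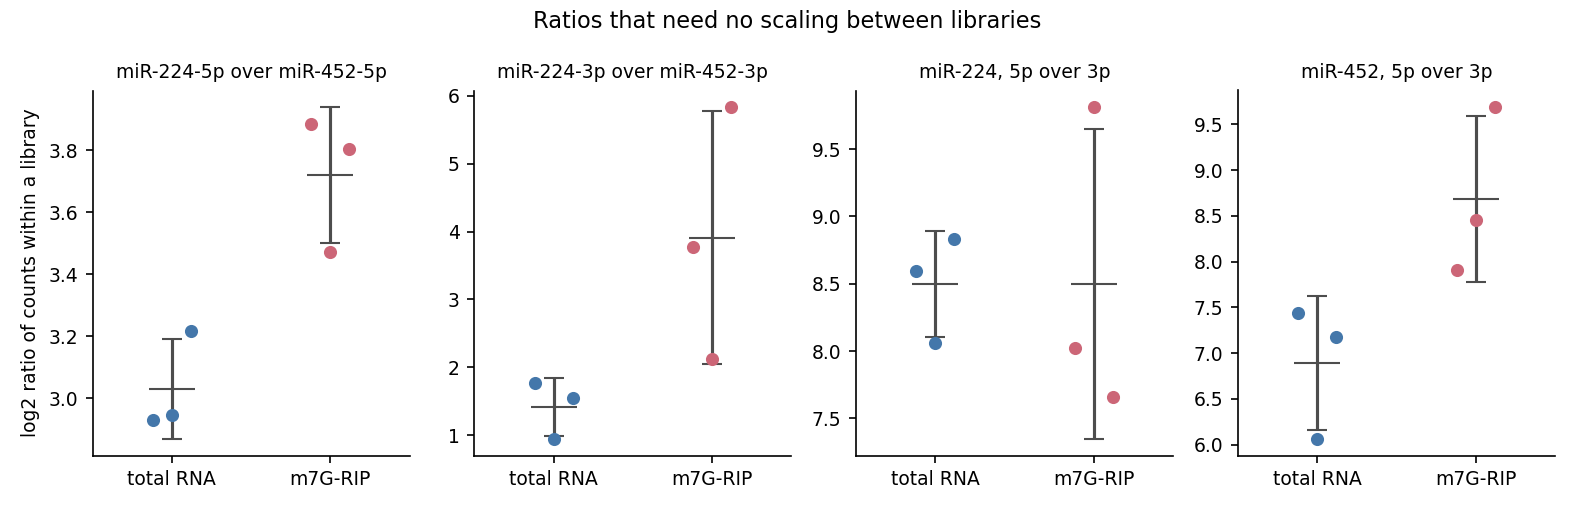
Log2 ratios of counts within a library, after adding 0.5 to each count, for the pairs of arms compared. Points are libraries and bars the mean ± SD (n = 3), and each panel has its own vertical axis, which does not start at 0. The groups separate in 3 panels and overlap for the 2 arms of miR-224. In the panels with miR-452-3p the separation supports no direction, since that arm was at the m7G-RIP floor.

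The hairpins as a whole show how common such differences between arms are. Of 139 hairpin names with both arms tested, miR-224 and miR-452 included, the more abundant arm had the higher log2 ratio in 64. Not all entries were independent. miR-365a and miR-365b had the same 3p values, and the arms of miR-4717 had equal values. The median of the abundant arm minus the other was -0.15 in log2 ratio. miR-224, with -0.15, was itself the hairpin at this median. For miR-452 the fitted difference was 2.43, but it rests on 2 reads of miR-452-3p in m7G-RIP and was 1.79 within libraries, so it was given no rank. Without regard to sign the arms of a hairpin differed by a median of 1.58, and miR-224 had the difference ranked 131 from the largest. In 8 of these hairpins, miR-452 included, an arm was at the floor of m7G-RIP, with at most 3 counts in every library. Both arms were depleted in 26 hairpins, both were enriched in 13, and in 17 the arms were called in opposite directions. The 26 include miR-452, but its 3p arm passed the filter only through total RNA, so that call supports no direction.

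**Figure D5:**
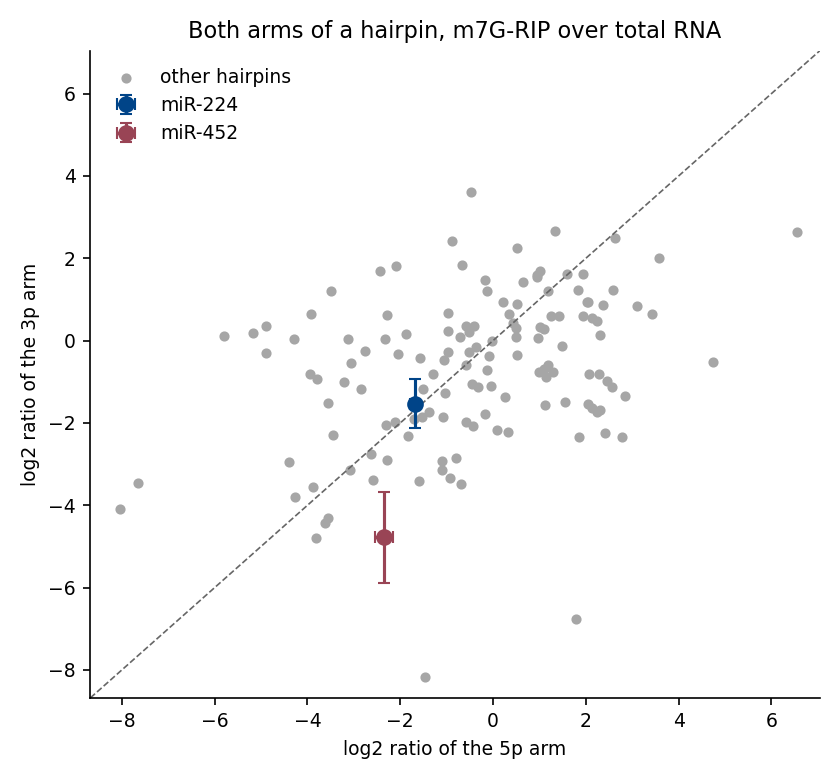
Log2 ratio of m7G-RIP over total RNA for the 5p arm (horizontal) and the 3p arm (vertical) of 139 hairpin names with both arms tested. The dashed line marks equal ratios and the bars are SE. miR-224 lies close to the line, at -1.68 and -1.53, and miR-452 below it, at -2.35 and -4.78, the latter for an arm at the m7G-RIP floor.

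Guanosine content was compared because the antibody recognises a modified guanosine. G made up 24.0% of miR-224-5p, 21.7% of miR-224-3p, 27.3% of miR-452-5p and 22.7% of miR-452-3p, against a median of 27.8% over the 557 tested miRNAs with a single RefSeq sequence, which are 89.8% of those tested. Across these 557 the log2 ratio rose with G content (Pearson r = 0.410, Spearman rho = 0.436), a description over miRNAs that share the same 6 libraries. When the 557 were split by G content into 4 bins of near equal size, all 4 arms fell in the second lowest bin, between 19.0% and 27.8% G, which had a median log2 ratio of -0.60. The bin with the most G had 1.55. Tested miRNAs within 2.5 percentage points of the G content of miR-224-5p had a median of -1.06 (86 miRNAs), against -1.68 for miR-224-5p itself. For miR-452-5p the median of 74 such miRNAs was -0.30, against -2.35. Of the 4 arms, miR-452-5p had the highest share of G and the second lowest log2 ratio. The part of G content in these values was not tested.

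GABRA3, another GABA-A receptor gene of the X chromosome, carries miR-105 and miR-767, which served as the parallel case. The parallel is loose, since miR-105 has the hairpins MIR105-1 and MIR105-2 there, beside MIR767. Counts per mature arm do not tell the miR-105 hairpins apart. For all 4 arms of miR-105 and miR-767 every m7G-RIP library lay below every total RNA library. The same held for the GABRE arms and for 36.5% of all tested miRNAs. The arms miR-105-3p, miR-767-3p and miR-452-3p passed the filter only through total RNA, so their place below was not open. miR-105-5p had 668, 730 and 644 counts in total RNA (75.4, 86.8 and 84.7 CPM) and 84, 114 and 108 in m7G-RIP (24.7, 35.8 and 28.9 CPM), which gave a log2 ratio of -1.46 with an SE of 0.23 (edgeR adjusted p 0.000612). For miR-767-5p the log2 ratio was -1.83 with an SE of 0.43 (edgeR adjusted p 0.0066). miR-105-3p had 56, 60 and 38 counts in total RNA and 0 in every m7G-RIP library, so it was at least 7.02-fold lower against a floor of 3 counts per library (edgeR adjusted p 0.00252). It entered the test only through total RNA, so its call supports no direction. miR-767-3p had 30, 54 and 34 counts in total RNA and 1, 1 and 8 in m7G-RIP and did not pass the test (log2 ratio -2.32, SE 0.97, edgeR adjusted p 0.072). The GABRA3 arms are scarcer than the GABRE guides, and as with MIR452 their 3p arms were close to or at the floor of m7G-RIP.

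The miRNAs of the X chromosome as a whole gave a wider frame. Of 147 names placed only there, 44 were tested. Of these, 19 (43.2%) were depleted and 2 enriched, against 29.2% depleted and 23.5% enriched among all 620 tested. The median log2 ratio was -0.99, against -0.07 over all tested. Of the 44, 4 were at the m7G-RIP floor and so could only be lower. Leaving out the 4 GABRE arms, 16 of 40 were depleted (40.0%) and the median was -0.60. Of these 40, 3 were still at the m7G-RIP floor, as were 22 of all 620 tested. These are counts and no test of the chromosome was made, and neighbouring miRNAs there share transcripts.

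The miRNAs whose levels changed most like each guide across the 6 libraries were found by distance, the root of the summed squared differences of log2 CPM centred on its mean, among the 359 miRNAs that had 10 or more counts in each of the libraries. For miR-224-5p the 3 nearest were miR-181b-5p (distance 0.204, log2 ratio -1.60), miR-200b-3p (0.207, log2 ratio -1.56), an epithelial miRNA, and miR-378a-3p (0.260, log2 ratio -1.86). For miR-452-5p they were miR-218-5p (0.217, log2 ratio -2.25), miR-9-5p (0.316, log2 ratio -2.28; the neuronal marker named above) and miR-27b-3p (0.375, log2 ratio -2.18). miR-452-5p itself stood at rank 43 from miR-224-5p, and miR-224-5p at rank 24 from miR-452-5p, both at a distance of 0.931. The neighbours in the intron were not each other's nearest by this distance. The distance takes in the gap between m7G-RIP and total RNA, so it favours miRNAs with a similar log2 ratio. Whether the pair is expressed together in cells was not tested.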

How the data were processed

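Small RNA libraries of total RNA and of m7G-RIP RNA, 3 each, were analysed. The authors deposited unnormalised read counts for each mature miRNA. Their methods describe adaptor trimming with Trimmomatic, end-to-end alignment by STAR against GRCh38 with up to 1 mismatch and several locations, and counting with featureCounts over the mature miRNAs of miRBase. The submitters' processing notes name Bowtie2 as aligner, so the aligner of these tables is not settled. End-to-end alignment can lose reads with added bases, and how reads with several locations were counted is not stated. Intervals cover counting error only, since PCR reads carry no molecular identifiers.

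The main test used edgeR 4.0.16 under R 4.3.3 (TMM scaling, default expression filter, robust quasi-likelihood F test, no replicate block). The Benjamini-Hochberg adjustment ran over all 620 miRNAs tested, at a threshold of 0.05. The test gives no SE, so that of an edgeR log2 ratio is its absolute value divided by the square root of F. It is approximate, above all for arms near the floor. The study's own tool, the DESeq2 Wald test (1.42.0), was an alternative. Ratios and shares within libraries were tested by exact two-sided permutation of the libraries, with a pseudocount of 0.5 for ratios. Code was tested on simulated counts.

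The members and lists were chosen with earlier results of these data known. Named miRNAs were the 4 members, entries sharing a seed with them, miR-105 and miR-767 of GABRA3, and the markers of cell types. The 3 nearest patterns of each member with at least 10 counts in every library were also named. All 4 members matched a RefSeq mature sequence, as did 2281 of 2588 names in all.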

Additional observations from a re-analysis of the deposited data

How the results depend on the processing

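Alternatives were another scaling, another filter, DESeq2, a replicate block, another pseudocount and leaving out each library. Of 128 recomputed values, 120 kept their direction and their side of the threshold. Enriched miRNAs numbered 116 to 216 and depleted miRNAs 133 to 245. miR-224-5p stayed depleted with log2 ratios from -1.95 to -1.13 and miR-452-5p with -2.75 to -1.80. miR-452-3p, which passed the filter only through total RNA, had -5.36 to -4.26 where it could be fitted. Under the filter of 10 counts in each library neither 3p arm was fitted, and miR-452-3p failed the default filter without total RNA replicate 2 or 3. miR-224-3p became a call with no filter (-1.80) and with DESeq2 (-1.55), and without a library it ran from -2.11 to -1.31. The cause was not tested.

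The difference between the MIR224 arms, 0.00028 with a pseudocount of 0.5, changed sign with a pseudocount of 1 (-0.049) and ran from -0.66 to 0.42 without a library. The difference in the 5p share of MIR224, -0.038 percentage points, ran from -0.15 to 0.043. The other pairs and shares kept their direction.

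Equal replicate numbers were not treated as pairs, since no label says that they share RNA. The paper's protocol does set aside part of the denatured RNA as input before the pulldown. The deviations of same-numbered libraries had correlations of -0.036, -0.101 and 0.054, and not every library correlated best with its own number. The groups were deposited as separate tables, so any difference between batches of libraries cannot be told apart from the pulldown. Under a replicate block there were 122 enriched and 175 depleted miRNAs, the log2 ratios were -1.68 for miR-224-5p, -1.64 for miR-224-3p, -2.37 for miR-452-5p and -4.79 for miR-452-3p, and no call of the 4 arms changed. The smallest exact sign-flip p of 3 pairs is 0.25. Depth limits the 3p arms, for which m7G-RIP held 54 and 2 counts in all.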
